A study of Saccharomyces cerevisiae with 6 samples.

Results

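The small ribosomal subunit of budding yeast is put together by a set of assembly factors, and 54 genes encoding such factors were followed here in wild-type cells and in cells lacking KAP114. The 54 were chosen by name, as components of the small-subunit processome or as factors that ride on the pre-40S particle afterwards. The deposited gene table lists 7125 genes, all 54 are among them, and all 54 had enough counts to be tested. The strain background was S288C, and both groups were grown in rich YPD medium that contained 1.5 M NaCl. The wild type and the kap114 knockout were represented by 3 libraries each, made from poly(A)-selected RNA with a stranded kit. KAP114 encodes a nuclear import receptor, whose known cargoes include histones and the TATA-binding protein. High salt was shared by all 6 libraries, and cultures without added salt were not analysed here, so every difference below is between strains in salt. Whether the 3 libraries of a strain are separate cultures is not stated in the labels, so the spread behind each p-value may be technical only.

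The processome is a large particle that forms on the nascent ribosomal RNA transcript in the nucleolus. The UtpA complex binds the start of the transcript, the UtpB complex and the U3 small nucleolar ribonucleoprotein (snoRNP) join it, and further factors fold, modify and cut the RNA until the 18S precursor is released. Pre-40S factors then accompany the precursor through export to the cytoplasm, where the last cut and the final quality checks take place. In budding yeast the genes of these factors are known to be transcribed together and to be repressed together under stress. Many of them carry a PAC element, or an RRPE element, or both, in the promoter.

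KAP114 itself (chrVII:45445-48459) had 257, 336 and 312 counts in the wild type and 0 in each knockout library. Library totals lay between 33638728 and 38540115 counts. Reads of RDN37, the ribosomal RNA precursor gene, made up 3.69 to 4.54% of counts in wild-type libraries against 9.05 to 12.3% in knockout libraries. Leaving RDN37 out of the libraries left 44 members higher and 3 lower, the same numbers as with it. The scaling method was unchanged there and 6078 genes were still tested, so little change was possible. With library totals as the only scaling, 40 members were higher and 3 lower. Knockout library 1 stood apart: on the first principal component, which held 92.4% of the variance, it lay at 11.2, against 49.7 and 39.5 for the other knockout libraries and -27.6 for the nearest wild-type library. All 6 library names also hold the word TAF1, whose meaning the labels do not state, so a feature it may mark would be shared by both strains. The knockout names hold replicate numbers 3 to 5 where the titles give 1 to 3, and the titles were followed. The names carry further running numbers that differ between the strains, so that an order of handling and the genotype cannot be told apart.

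The promoters of these genes are shown first, since the shared elements are the feature that their sequences have in common. The stretches below run from 200 to 61 bases before the start codon, 5′ to 3′ on the strand of the gene, from the R64 genome. Capitals mark the PAC core GATGAG and the RRPE core AAAATTTT, each on either strand, so that a PAC core on the other strand reads CTCATC. The 7 genes were picked after their values were seen, as 3 whose RNA was higher in the knockout, 2 that did not pass the test, 1 that was lower, and 1 that was higher without carrying either element:
UTP13, chrXII:581832-581971, minus strand: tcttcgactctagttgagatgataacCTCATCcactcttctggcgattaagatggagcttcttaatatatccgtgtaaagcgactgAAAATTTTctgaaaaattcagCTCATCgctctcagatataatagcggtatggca
NOP58, chrXV:898421-898560, minus strand: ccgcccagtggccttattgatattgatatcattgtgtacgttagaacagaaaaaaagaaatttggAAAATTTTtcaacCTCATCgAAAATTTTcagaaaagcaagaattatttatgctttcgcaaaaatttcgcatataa
UTP21, chrXII:937294-937433, minus strand: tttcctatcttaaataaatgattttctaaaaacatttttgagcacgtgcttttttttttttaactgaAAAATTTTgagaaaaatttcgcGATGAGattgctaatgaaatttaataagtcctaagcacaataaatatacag
IMP4, chrXIV:485407-485546, plus strand: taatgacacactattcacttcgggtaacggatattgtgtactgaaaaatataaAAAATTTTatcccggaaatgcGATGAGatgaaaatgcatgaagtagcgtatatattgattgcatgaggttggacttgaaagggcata
UTP7, chrV:325997-326136, minus strand: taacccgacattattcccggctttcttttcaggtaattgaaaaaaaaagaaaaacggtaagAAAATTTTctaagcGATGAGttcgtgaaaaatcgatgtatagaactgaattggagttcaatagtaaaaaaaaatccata
RIO1, chrXV:550307-550446, minus strand: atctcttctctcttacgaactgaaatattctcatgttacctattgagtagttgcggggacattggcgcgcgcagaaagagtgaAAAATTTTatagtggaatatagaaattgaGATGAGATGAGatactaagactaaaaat
EMG1, chrXII:523432-523571, plus strand: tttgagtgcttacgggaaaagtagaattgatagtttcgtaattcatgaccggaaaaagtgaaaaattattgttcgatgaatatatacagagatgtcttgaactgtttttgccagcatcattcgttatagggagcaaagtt
In UTP13, NOP58 and UTP21 the elements lie beside each other, and the same arrangement is found in IMP4 and UTP7, whose RNA did not pass the test. RIO1, whose RNA was lower in the knockout, carries 2 overlapping PAC cores and 1 RRPE core. EMG1 carries neither core in this stretch or anywhere in the 250 bases before its start codon.

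Of the 54 members, 44 were higher and 3 were lower in the kap114 knockout, and 7 did not pass the test (edgeR quasi-likelihood test, Benjamini-Hochberg adjusted p under 0.05 over the 6080 genes tested). The background was high: 34.3% of all tested genes were called higher and 30.0% lower. Among the members, 81.5% were called higher and 5.56% lower. At least a 2-fold rise was called for 22 members, against 17.1% of tested genes, and at least a 4-fold rise for 2, NOP58 and UTP4, against 3.27%. The median log2 fold change was 0.95 over the members (interquartile range 0.45 to 1.34, from -0.78 to 2.02) and 0.01 over all tested genes (interquartile range -0.51 to 0.69). Every knockout library lay above every wild-type library in 45 members, on CPM (counts scaled to the size of the library), against 37.9% of tested genes, and every knockout library lay below in 3, against 35.9%. The libraries are of whole cultures, so a change in the mix of cells and a change in RNA per cell cannot be told apart.

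Summed over the 54 genes, TPM (a level that takes gene length and library size into account) were 1499, 1728 and 1707 in the wild type and 2133, 2775 and 2619 in the knockout. The lowest knockout library was above the highest wild-type library, and the knockout mean (2509 ± 335, SD, n = 3) was 1.53 times the wild-type mean (1644 ± 127, n = 3). Knockout library 1 had the lowest CPM of the 3 knockout libraries in 47 of the 54 genes, and library 2 had the highest in 44. Against the wild-type mean, the members' median log2 difference came to 0.61 for knockout library 1, against 1.14 and 1.04 for libraries 2 and 3. Without knockout library 1, 46 members were called higher and 3 lower.

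**Figure D1:**
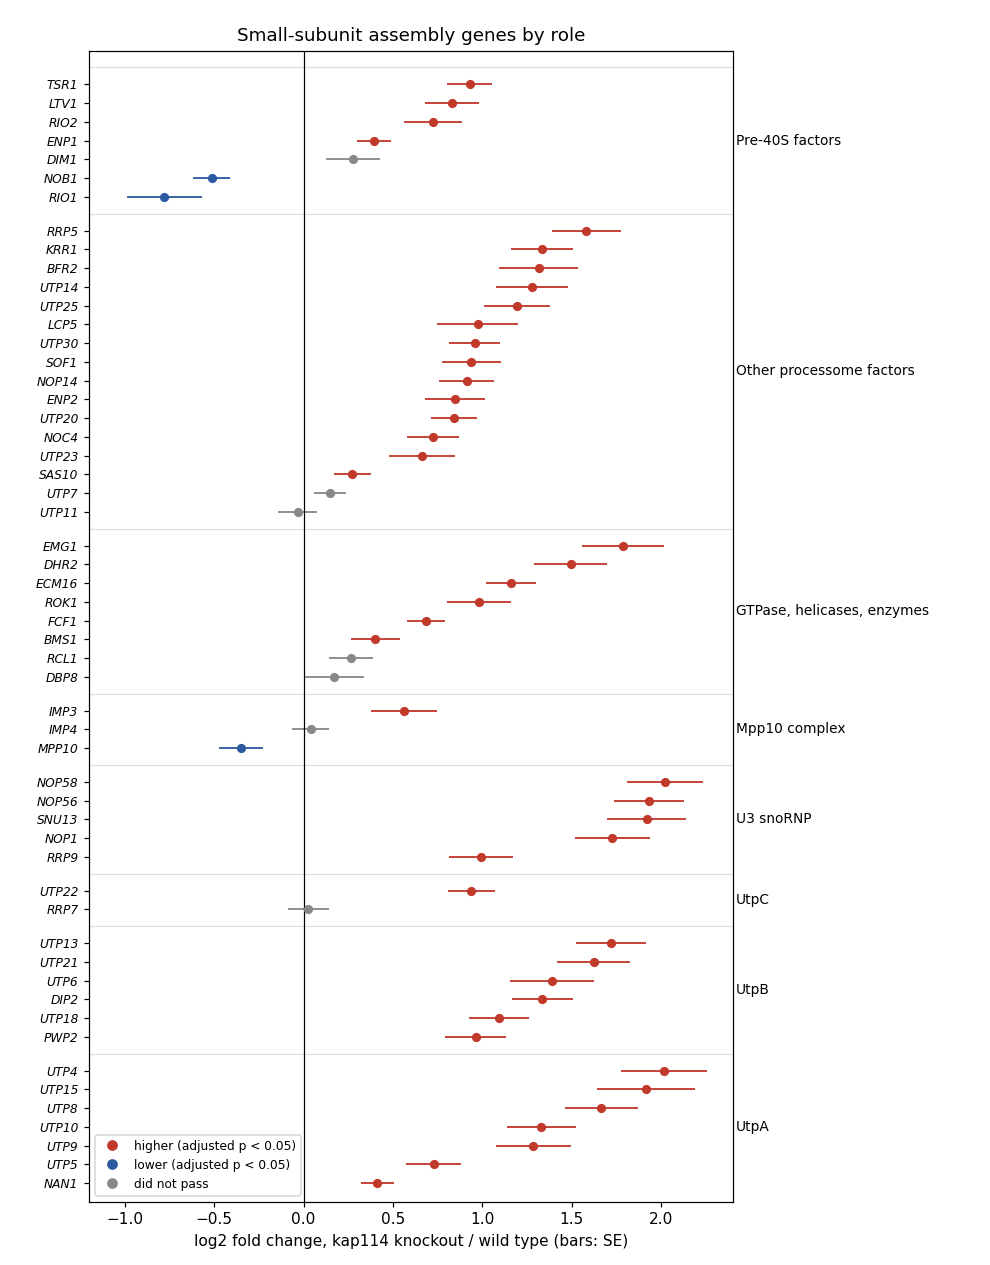
Log2 fold change of each of the 54 genes, knockout over wild type, on the x axis with its standard error as a bar, grouped by role in assembly on the y axis. The UtpA, UtpB and U3 snoRNP genes all lie above 0.4. MPP10, NOB1 and RIO1, which were called lower, lie below 0, as does UTP11 (-0.03), which did not pass.

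The UtpA complex is the first to bind the nascent transcript, and all 7 of its genes were higher in the knockout, with a median log2 fold change of 1.33. UTP4 (chrIV:1114433-1116763), which encodes a WD-repeat subunit, stood at 2.53, 4.12 and 3.32 TPM in the wild type and at 9.48, 15.8 and 13.0 TPM in the knockout. The groups were well apart, and the log2 fold change was 2.02 ± 0.24 (SE, adjusted p = 0.00114), a 4.05-fold rise. UTP5 is the most abundant of the 7 in both strains, with 33.4, 41.1 and 44.7 TPM in the wild type and 51.4, 69.8 and 66.0 TPM in the knockout. Its groups did not overlap either, and it rose 1.66-fold (log2 fold change 0.73 ± 0.16, adjusted p = 0.00595). NAN1, also known as UTP17, changed least among the 7, from 18.9, 22.0 and 19.8 TPM to 25.2, 24.7 and 27.0 TPM. Even so, its lowest knockout library was above its highest wild-type library (0.41 ± 0.09, adjusted p = 0.00672). Between these lay UTP15 at 1.92 ± 0.27, UTP8 at 1.67 ± 0.21, UTP10 at 1.33 ± 0.19 and UTP9 at 1.29 ± 0.21. UTP10 encodes the largest protein of the complex, and its level went from 3.38 ± 0.684 TPM to 8.05 ± 1.53 TPM. The ratio of the most to the least abundant UtpA gene fell from between 10.8 and 13.5 in the wild-type libraries to between 7.35 and 8.03 in the knockout libraries.

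The UtpB complex bridges UtpA and the U3 snoRNP, and all 6 of its genes rose, with a median log2 fold change of 1.36. UTP13 (chrXII:579318-581771) had 4.31, 6.61 and 6.24 TPM in the wild type and 14.3, 19.9 and 19.5 TPM in the knockout. Every knockout library was more than double the highest wild-type value, and the rise was 3.30-fold (1.72 ± 0.20, adjusted p = 0.00114). PWP2, the gene of another WD-repeat subunit, had 10.5, 14.2 and 14.1 TPM against 18.995, 26.9 and 26.0 TPM. It had the highest wild-type level of the 6 and rose least, 1.95-fold (0.96 ± 0.17, adjusted p = 0.00287). UTP21 rose 3.08-fold (1.62 ± 0.20), UTP6 2.62-fold (1.39 ± 0.24) and DIP2 2.52-fold (1.34 ± 0.17). UTP18, whose product is known to recruit the RNA exosome through its helicase Mtr4, rose 2.13-fold (1.09 ± 0.17). The 6 UtpB genes became more alike in level, since the highest was 2.26 to 2.66 times the lowest in the wild-type libraries and 1.71 to 1.86 times in the knockout libraries.

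All 5 protein genes of the U3 snoRNP rose, with a median log2 fold change of 1.92, the highest of the 8 role groups. The U3 RNA pairs with the ribosomal RNA precursor and guides its folding, and SNU13, NOP56, NOP58 and NOP1 form the core shared by all box C/D snoRNPs. SNU13 (chrV:101943-102323), which binds the kink-turn of the RNA, had 43.5, 64.9 and 61.7 TPM in the wild type and 149, 244 and 217 TPM in the knockout. It rose 3.78-fold (1.92 ± 0.22, adjusted p = 0.00114) and was the most abundant member in each knockout library. NOP58 (chrXV:896825-898360) had 18.2, 30.4 and 22.9 TPM against 73.3, 102 and 99.8 TPM, with no overlap. Its rise of 4.06-fold (2.02 ± 0.21, adjusted p = 0.00111) was the largest of the 54. NOP58 overlaps the dubious reading frame YOR309C by 254 bases on the same strand, so how the reads there were divided between them is uncertain; YOR309C had 197, 245 and 230 counts in the wild type and 429, 1172 and 1367 in the knockout. NOP56 rose 3.82-fold (1.93 ± 0.20), and NOP1, which encodes the methyltransferase fibrillarin, rose 3.31-fold (1.73 ± 0.21).

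RRP9 encodes the protein specific to U3 and is absent from the other box C/D particles. It had 20.1, 24.0 and 20.9 TPM in the wild type and 31.2, 50.1 and 41.7 TPM in the knockout. The groups did not overlap, and the rise of 1.99-fold (0.99 ± 0.18, adjusted p = 0.00301) was the smallest of the 5. The summed level of the 5 genes went from 180 ± 33.0 TPM to 597 ± 130 TPM. Their share of all TPM of the 54 members was 9.71, 12.2 and 10.8% in the wild type and 21.2, 25.3 and 24.3% in the knockout. The genes of the U3 RNA, SNR17A and SNR17B, are near-identical copies whose product is not polyadenylated, so their counts in poly(A)-selected libraries are a poor measure of it. SNR17A had 788, 1694 and 1078 counts in the wild type and 2994, 2240 and 2747 in the knockout (log2 fold change 1.29 ± 0.23, adjusted p = 0.00304). SNR17B had 97, 232 and 126 counts against 314, 233 and 268 (0.97 ± 0.29, adjusted p = 0.0201), and without wild-type library 1 or 3 only 1 of the 2 genes was called.

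**Figure D2:**
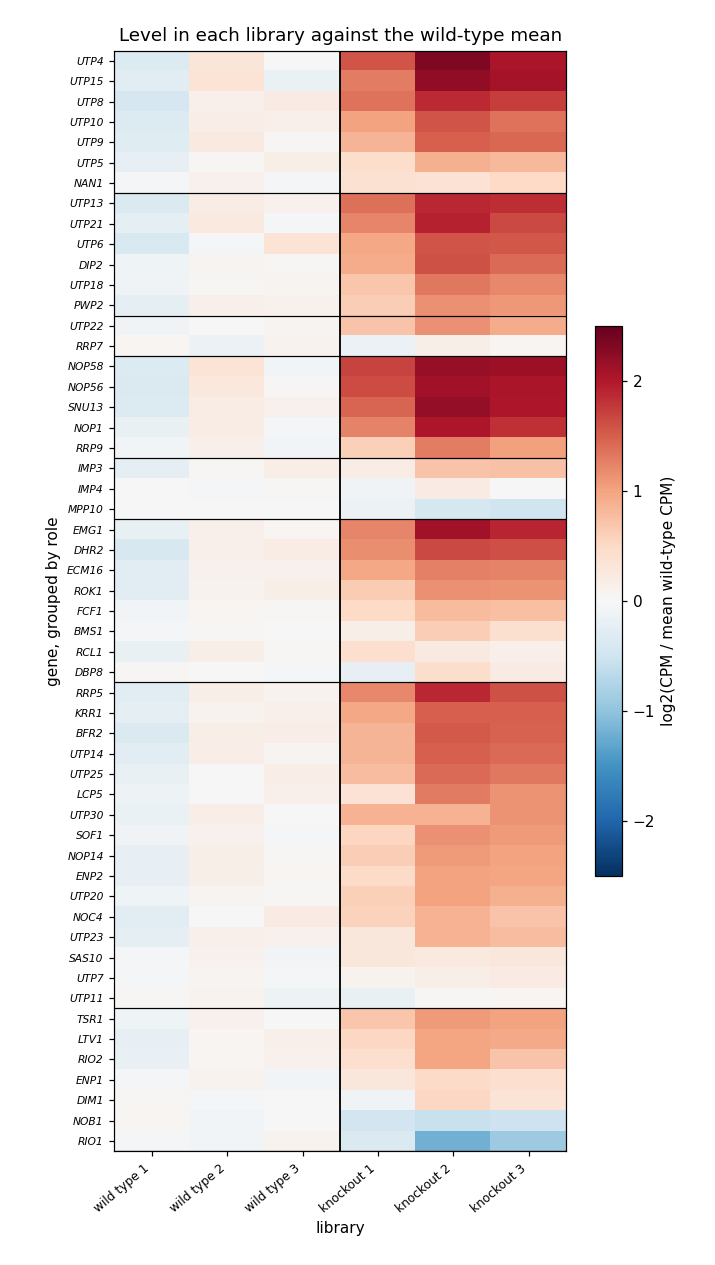
Level of each of the 54 genes (y axis, grouped by role) in each of the 6 libraries (x axis), coloured as the log2 difference of CPM from the mean of the wild-type libraries. Most rows are above the wild-type mean in all 3 knockout libraries, knockout library 1 has the lowest level of the 3 in 47 rows, and the rows of MPP10, NOB1 and RIO1 are below it.

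The UtpC complex, which also holds subunits of casein kinase 2, was represented by UTP22 and RRP7, and they differed. UTP22 had 5.70, 6.41 and 6.64 TPM in the wild type and 9.78, 13.1 and 11.3 TPM in the knockout. All its knockout libraries were higher, and it rose 1.92-fold (0.94 ± 0.13, adjusted p = 0.00129). RRP7, the fourth most abundant member in the wild type, had 85.2, 77.6 and 91.0 TPM against 73.9, 89.1 and 82.8 TPM. Its groups overlapped throughout, with a log2 fold change of 0.03 ± 0.11 (adjusted p = 0.860), whose sign depended on the scaling and on the libraries used.

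The Mpp10 complex, made of Mpp10, Imp3 and Imp4, helps the U3 RNA pair with its target. Of its 3 genes 1 fell, 1 rose and 1 did not pass the test. These shares, 33.3% each, were near those of all tested genes, 34.3% higher and 30.0% lower. MPP10 (chrX:438865-440646) had 83.0, 86.9 and 85.8 TPM in the wild type and 73.9, 59.5 and 57.5 TPM in the knockout. Every knockout library was lower, with a 1.28-fold fall (log2 fold change -0.35 ± 0.12, adjusted p = 0.0367). That call was lost when any library other than knockout library 1 was left out, with adjusted p between 0.0917 and 0.144. IMP4 had 58.5, 59.0 and 62.2 TPM against 54.3, 65.6 and 56.0 TPM, with overlapping groups and a log2 fold change of 0.04 ± 0.10 (adjusted p = 0.746). IMP3 had 19.8, 24.7 and 27.3 TPM against 26.0, 37.3 and 37.4 TPM. Its groups overlapped on TPM but not on CPM, and the rise of 1.48-fold (0.56 ± 0.18, adjusted p = 0.0303) was no longer called when any of 4 libraries was left out, the wild-type ones numbered 1 and 2 and the knockout ones numbered 2 and 3 (adjusted p 0.0727 to 0.112). The summed level of the 3 genes was 169 ± 7.11 TPM in the wild type and 156 ± 5.88 TPM in the knockout. They made up 9.88 to 10.8% of the members' summed TPM among wild-type libraries, against 5.77 to 7.23% among knockout libraries, where that sum was larger.

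Among the GTPase, the helicases and the other enzymes of the processome, 6 of 8 genes were higher and 2 did not pass the test. EMG1 (chrXII:523632-524390), which encodes a methyltransferase that modifies a pseudouridine of 18S RNA, had 15.05, 19.5 and 18.6 TPM in the wild type and 39.7, 71.9 and 62.5 TPM in the knockout. Its groups were far apart, and it rose 3.45-fold (1.79 ± 0.23, adjusted p = 0.00114). FCF1, which encodes an endonuclease of the PIN-domain family known as Utp24, had 55.8, 63.2 and 62.4 TPM against 82.2, 99.0 and 96.1 TPM. Starting from the highest wild-type level of the 8, it rose 1.61-fold without overlap (0.69 ± 0.11, adjusted p = 0.00175). The helicase gene ECM16, whose product Dhr1 unwinds U3 from the pre-ribosome, rose 2.24-fold (1.16 ± 0.14). DHR2 and ROK1, also helicase genes, rose 2.82-fold (1.49 ± 0.21) and 1.97-fold (0.98 ± 0.18); DHR2 was the least abundant member in both strains, at 2.88 ± 0.656 TPM and 7.69 ± 1.29 TPM.

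DBP8, a further helicase gene, had 22.4, 22.9 and 22.5 TPM in the wild type, while its knockout libraries spread from 18.7 in library 1 to 29.2 in library 2 and 24.7 in library 3. It did not pass (0.17 ± 0.16, adjusted p = 0.382), but without knockout library 1 it was called higher (adjusted p = 0.0134). BMS1, the gene of the processome GTPase, had 33.1, 35.6 and 35.2 TPM against 36.9, 50.2 and 43.2 TPM. The groups did not overlap (0.40 ± 0.14, adjusted p = 0.0345), yet the call was lost without any library other than knockout library 1 (adjusted p 0.0884 to 0.105). RCL1, whose product is bound by Bms1, had 42.6, 55.6 and 51.1 TPM against 64.2, 54.8 and 51.7 TPM. Its groups overlapped, knockout library 1 was the highest here, and it did not pass (0.27 ± 0.12, adjusted p = 0.0931).

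Of the 16 remaining processome factors, 14 were higher and UTP7 and UTP11 did not pass. RRP5, whose product works in the assembly of both subunits, had 5.17, 7.21 and 6.92 TPM in the wild type and 14.1, 22.3 and 18.4 TPM in the knockout. It rose 2.99-fold without overlap (1.58 ± 0.19, adjusted p = 0.00114), the largest change of the 16. SAS10, the most abundant of the 16 in the wild type, had 69.5, 80.2 and 71.7 TPM against 86.6, 83.0 and 84.9 TPM. Its rise of 1.21-fold was small (0.27 ± 0.10, adjusted p = 0.0483) and was not called without any library other than knockout library 1 (adjusted p 0.0680 to 0.164), nor under several other settings. UTP11 had 65.1, 70.9 and 60.9 TPM against 55.2, 63.4 and 64.3 TPM, with overlapping groups (-0.03 ± 0.11, adjusted p = 0.798). UTP7 had 48.8, 54.2 and 50.9 TPM against 52.1, 54.1 and 56.0 TPM, overlapping on TPM but not on CPM, where every knockout library was higher (0.15 ± 0.09, adjusted p = 0.185).

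The other 12 of these factors rose by between 0.66 and 1.33 on the log2 scale. KRR1, the gene of a KH-domain protein, went from 38.1 ± 5.86 TPM to 91.1 ± 17.3 TPM (log2 fold change 1.33 ± 0.17). BFR2 (1.31 ± 0.22) and LCP5 (0.97 ± 0.23) encode proteins that act together. UTP14, whose product activates the helicase Dhr1, rose by 1.28 ± 0.20 and UTP25 by 1.19 ± 0.18. NOP14 (0.91 ± 0.15) and NOC4 (0.73 ± 0.15), whose products bind each other, rose by less than 2-fold. The same held for UTP30 (0.96 ± 0.14), SOF1 (0.94 ± 0.17), ENP2 (0.85 ± 0.17), UTP20 (0.84 ± 0.13) and UTP23 (0.66 ± 0.18). UTP23 was no longer called once wild-type library 1, or knockout library 3, was left out (adjusted p 0.0602 and 0.0621). LCP5 showed the widest relative gap between knockout libraries among these, with 33.2 TPM in library 1 and 62.5 and 55.5 TPM in libraries 2 and 3.

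Of the 7 genes of late pre-40S factors, 4 were higher, 2 lower and 1 did not pass, with a median log2 fold change of 0.40. The share called lower, 28.6%, was near the 30.0% of all tested genes. The share called higher was 57.1%, against 34.3%. NOB1 (chrXV:430247-431626), which encodes the endonuclease that makes the last cut at the end of 18S RNA, had 150, 145 and 152 TPM in the wild type and 103, 95.6 and 99.0 TPM in the knockout. It was the most abundant member in every wild-type library, and its groups were narrow and fully apart. The fall was 1.43-fold (log2 fold change -0.51 ± 0.10, adjusted p = 0.00471). RIO1 (chrXV:548792-550246), which encodes an atypical kinase acting at the end of 40S maturation, had 121, 123 and 135 TPM against 94.5, 52.2 and 64.02 TPM. All knockout libraries were below the wild type, with library 1 nearest to it. The 1.72-fold fall was the largest among the members (-0.78 ± 0.21, adjusted p = 0.0142), but was not called without wild-type library 3 (adjusted p = 0.0506) or knockout library 3 (adjusted p = 0.0557).

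TSR1, whose product resembles a GTPase and sits on the pre-40S particle, had 20.3, 24.5 and 22.9 TPM in the wild type and 34.9, 44.4 and 43.1 TPM in the knockout. It rose most of the 7, 1.91-fold and without overlap (0.93 ± 0.13, adjusted p = 0.00119). LTV1 rose 1.78-fold (0.83 ± 0.15) and ENP1 1.32-fold (0.40 ± 0.10); their products bind near the head of the particle. RIO2, a kinase gene related to RIO1, rose 1.65-fold (0.72 ± 0.16), so the pair moved in opposite directions. DIM1, which encodes the dimethylase of 18S RNA, had 59.2, 59.0 and 61.5 TPM against 53.97, 80.7 and 72.3 TPM. Knockout library 1 was below the wild type and the other two above it; the test did not pass (0.28 ± 0.15, adjusted p = 0.147), but it did without that library (adjusted p = 0.00112). The summed level of the 7 genes was 452 ± 19.1 TPM in the wild type and 422 ± 12.8 TPM in the knockout. Their share of the members' summed TPM was 28.9, 26.1 and 27.6% in the wild type and 19.1, 15.6 and 16.3% in the knockout.

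The change was not even across levels. The 18 members with the highest wild-type level, between 31.5 and 149 TPM, comprised 9 that were higher, 6 that did not pass and 3 that were lower, with a median log2 fold change of 0.28. Of the 18 in the middle, between 10.95 and 29.9 TPM, 17 were higher, and the median was 0.92. All 18 of the least abundant, between 2.88 and 10.8 TPM, were higher, with a median of 1.33. A gradient of the same direction was present among all tested genes. In the same 3 ranges, 24.0%, 46.9% and 56.1% of genes were called higher, and 42.9%, 15.7% and 8.59% lower. Their median log2 fold changes were -0.21, 0.27 and 0.57. Across the 54 genes, the Spearman correlation between wild-type TPM and log2 fold change was -0.64. It is given as a description only, since both quantities contain the wild-type libraries.

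**Figure D3:**
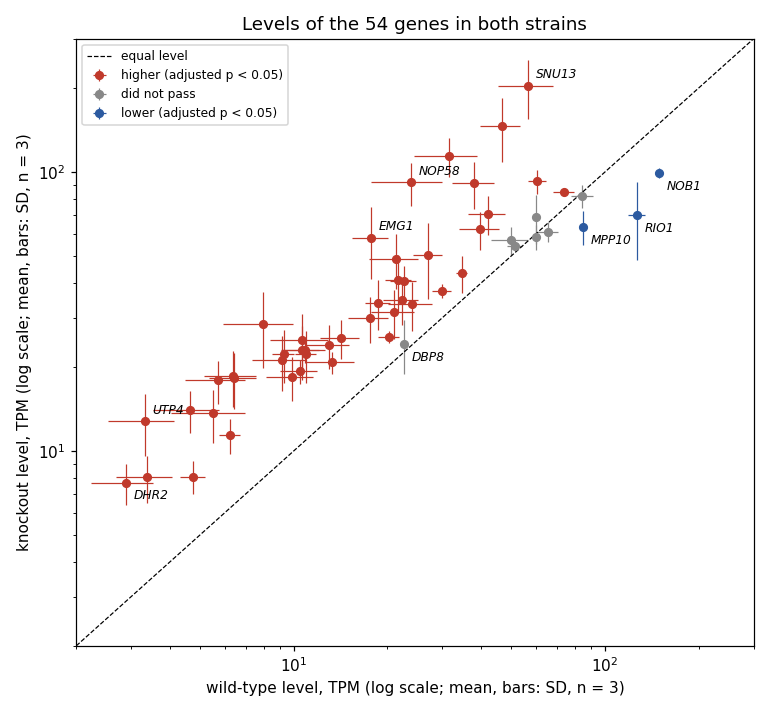
Mean TPM of each of the 54 genes in the wild type (x axis, log scale) and in the knockout (y axis, log scale). Points are coloured by the result of the test (higher, lower or did not pass), and the dashed line marks equal levels. The least abundant genes all lie above the line, and NOB1 and RIO1, the most abundant in the wild type, lie below it.

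The levels of the 54 genes were closer together in the knockout. The SD of log2 TPM over the members was 1.50, 1.37 and 1.39 for the wild type, against 1.15, 1.07 and 1.08 for the knockout. The most abundant member was 45.4 to 70.5 times the least abundant in the wild type and 24.0 to 28.5 times in the knockout. The order of the genes was largely kept, with a Spearman correlation of 0.919 between their mean TPM in the strains. Over the 6066 genes with a value in every library the same SD was 2.38 to 2.46 for the wild type, against 2.32 to 2.35 for the knockout. The 72 genes of 60S assembly narrowed as well, with SDs of 1.64, 1.51 and 1.56 for the wild type and 1.32, 1.26 and 1.26 for the knockout. The U3 snoRNP genes went the other way, their most abundant gene being 2.39 to 2.95 times the least abundant in the wild type and 4.77 to 5.21 times in the knockout.

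The promoter elements were found in members that were higher, in members that were lower and in members that did not pass. A PAC core was found in the 250 bases before the start codon in 47 of 54 members (87.0%), against 17.0% of 6001 promoters. An RRPE core was found in 42 members (77.8%), against 8.65%, and both cores in 38 (70.4%), against 4.08%. A PAC core was present in 38 of the 44 genes that were higher, in 6 of the 7 that did not pass and in all 3 that were lower. An RRPE core was present in 34, 5 and 3 of these genes. The median log2 fold change was 0.95 in the 38 genes with both cores, 0.94 in the 9 with PAC alone, 1.30 in the 4 with RRPE alone and 0.96 in the 3 with neither, EMG1, UTP22 and UTP30. The stress response element AGGGG was found in 7 members (13.0%), against 18.8% of promoters. These are matches of letters on either strand in R64, not sites shown to be bound.

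**Figure D4:**
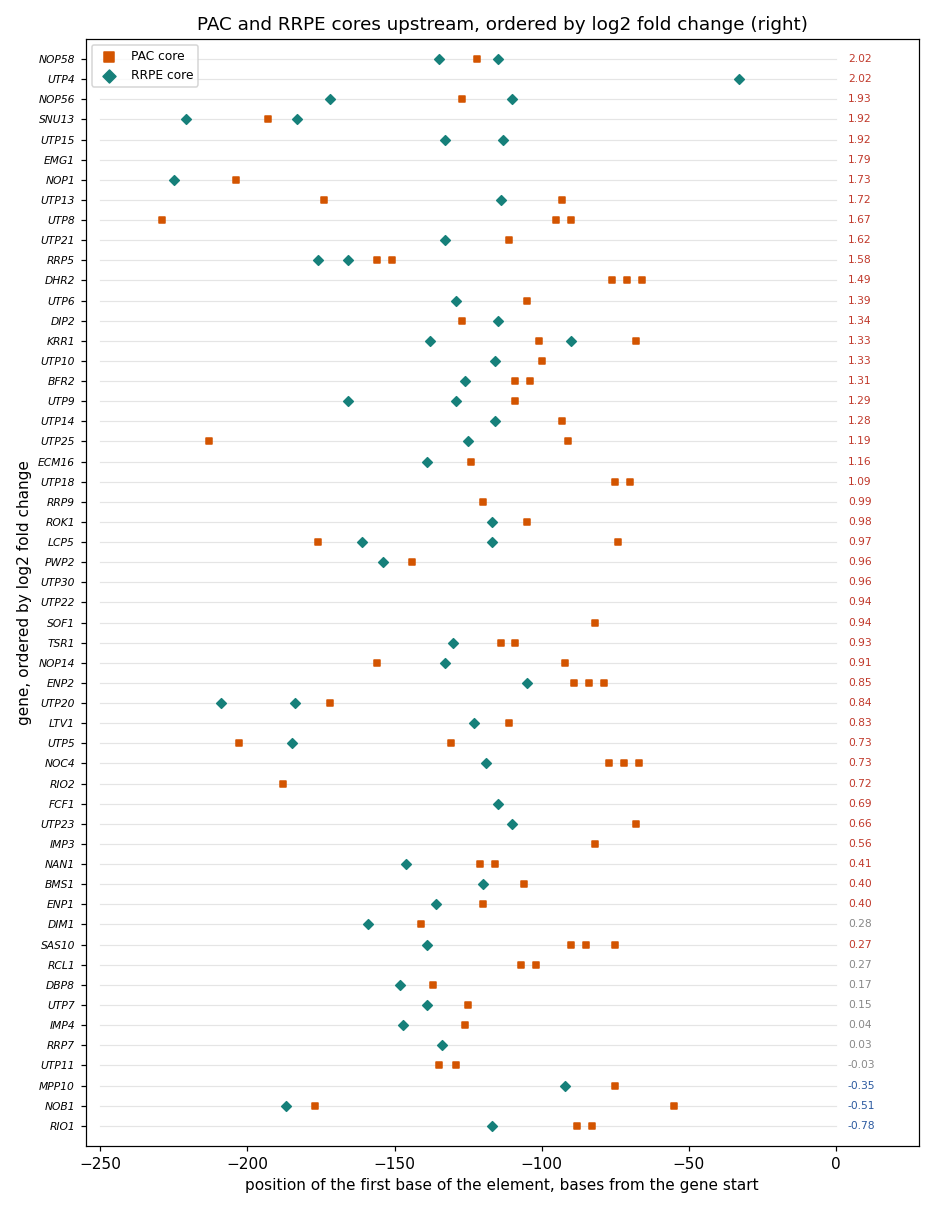
Position of each PAC core and RRPE core in the 250 bases before the start codon (x axis, bases relative to the start codon) for the 54 genes (y axis), ordered by log2 fold change. The nearest PAC core lay at a median of 106 bases and the nearest RRPE core at a median of 127.5 bases before the start codon. In NOP58, NOP56, SNU13 and DIP2 the nearest RRPE core is the closer of the pair, while in NOP1 the PAC core is.

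The nearest PAC core lay a median of 106 bases before the start codon, with a range of 55 to 204 over 47 genes. The nearest RRPE core lay farther upstream, at a median of 127.5 bases and a range of 33 to 225 over 42 genes. The members lie on 14 chromosomes, and none of them is the neighbour of another. UTP9, DBP8 and LCP5 each lie next to a gene of 60S assembly, RIX1, NMD3 and NSA2. On the opposite strand, NOP56, RRP9 and SAS10 overlap dubious reading frames, which had at most 18 counts in any library.

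Further lists of ribosome assembly place these values. Of 36 other factors of 40S assembly, 25 were higher, 4 were lower and 7 did not pass, with a median log2 fold change of 0.71. RRP3, a helicase gene, rose by 1.90 ± 0.26, and PRP43, a helicase gene of splicing and assembly, by 1.74 ± 0.25, on the log2 scale. ESF1 (1.79 ± 0.23) and the acetyltransferase gene KRE33 (1.64 ± 0.23) rose by similar amounts. BUD23, which encodes the methyltransferase of a late 18S guanine, fell by 1.03 on the log2 scale, and TRM112, which encodes its partner, fell by 0.46. SGD1 fell by 0.52 and SQS1, the gene of a protein that binds Prp43, fell by 0.44. Of 72 genes of 60S assembly, 56 were higher, 1 was lower (RSA1) and 15 did not pass, with a median of 1.02. The largest log2 fold changes there were 2.03 for URB1, 1.96 for MRT4, 1.87 for RRP1 and 1.86 for CGR1, and that of RSA1 was -0.63. Without knockout library 3, or without either of wild-type libraries 1 and 3, no gene of 60S assembly was called lower. All 57 genes of small-subunit ribosomal proteins were higher, with a median of 2.05 and a range of 0.80 to 2.75, although many are near-identical pairs whose reads the counting may have split. The members' median was thus near that of 60S assembly and below that of the ribosomal protein genes.

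Of 8 genes encoding regulators of the transcription of assembly factor or ribosomal protein genes, 7 were lower and none was higher. Among all tested genes, 30.0% were called lower and 34.3% higher. STB3, which encodes the repressor that binds RRPE, fell by 1.34 on the log2 scale (-1.34 ± 0.29). TOD6 (-1.13 ± 0.30) and DOT6 (-0.57 ± 0.17), which encode the PAC-binding repressors, were lower, as were the kinase gene SCH9 (-0.89 ± 0.21) and the activator gene SFP1 (-0.74 ± 0.16). FHL1 (-0.72 ± 0.13) and CRF1 (-0.80 ± 0.21), which encode an activator and a corepressor of ribosomal protein genes, were lower too. IFH1, the gene of a coactivator, had a log2 fold change of 0.21 ± 0.09 (adjusted p = 0.0889). Genes of repressors and of activators were lower in the same libraries in which the 44 members were higher.

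In the authors' deposited table of the same comparison, 42 of the 54 members were higher and 2 lower at a false discovery rate under 0.05. The share of all genes at that rate was not counted here. The authors' deposited selection holds 2212 genes, where 7125 are listed in all, and 21 of the 54 members were included. The log2 fold changes of that deposited table differed from those given here by at most 0.00168 over the members.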

How the data were processed

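RNA of 3 wild-type and 3 kap114 knockout libraries was compared; groups came from the sample titles. Per the file headers, the authors deposited whole-number counts per gene for each library, with RPKM and TPM values beside them. The authors' deposited table of the comparison lists the log2 fold change with p-values and false discovery rates, and a further deposited table gives the ratio of each TPM to a median and the log2 of that ratio. The submitters' processing notes name FastQC and build R64; the sources used here do not name the aligner or counting program. A line of the deposited gene table was emptied and holds no gene. Of 7125 genes, 555 had no count.

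Counts were filtered with filterByExpr (minimum count 10, minimum total 15), scaled with TMM factors (0.947 to 1.07) and tested with edgeR 4.0.16 (robust quasi-likelihood, R 4.3.3), adjusting over 6080 genes. The script was tested on simulated data. DESeq2 1.42.0, limma 3.58.1 on log2(TPM + 1) or log2(TPM + 0.1), other scalings and filters, a replicate block and leaving out each library were alternatives. Levels are TPM; folds come from the fitted counts, so they differ slightly from ratios of TPM. Promoters were read from the R64 genome, whose annotation matched the coordinates of all 54 genes. Values in all libraries are printed for the gene with the highest level, the largest and the smallest log2 fold change in each role group, and for every gene that was lower or did not pass; of other lists, up to 4 rises and 4 falls are named. The members, role groups and other lists were chosen with earlier results of these data known, and the 7 promoters after the values were seen.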

Additional observations from a re-analysis of the deposited data

How the results depend on the processing

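Of the 54 members, 41 kept their direction and their side of the threshold in all 16 alternatives run. The numbers called higher and lower ranged from 40 to 46 and from 1 to 3. With library totals as the only scaling the median log2 fold change was -0.13 over all genes and 0.80 over the members, and 40 members were higher. The signs of 3 members that did not pass were not settled. RRP7 was at -0.12 with library totals, -0.00146 with DESeq2, -0.0469 and -0.0474 with limma, and between -0.0439 and 0.10 when single libraries were left out. IMP4 was at -0.10 with library totals, -0.0348 and -0.0354 with limma, and between -0.0521 and 0.10 without single libraries. UTP11 was at 0.0436 with upper-quartile scaling and between -0.0941 and 0.0414 without single libraries. RCL1 was called higher with upper-quartile scaling (adjusted p = 0.0404), ENP1 was not called with library totals (0.0527), and BMS1, IMP3 and SAS10 were not called with library totals or limma.

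Over all genes, leaving out a library gave 1729 to 2364 higher and 1096 to 2260 lower calls, the fewest lower ones without knockout library 3 (1096) and wild-type library 1 (1210). The number of Mpp10 complex genes called higher was 0 with library totals and with limma at either pseudocount, and 0 to 1 without single libraries; the number lower was 0 to 1. Of the pre-40S genes, 1 to 2 were lower without single libraries. The 60S assembly genes called lower numbered 3 with library totals, 2 with DESeq2, 2 with the replicate block and 0 to 3 without single libraries. Of the regulators, 1 was higher with upper-quartile scaling. Of the U3 RNA genes, 1 was higher with at least 10 CPM in 3 libraries, and 1 to 2 without single libraries. Longer cores, GCGATGAG and GAAAATTTT, were each found in 50% of the members, against 3.83% and 4.57% of promoters.

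Same-numbered libraries of the strains deviated together with correlations of 0.429, 0.287 and -0.0775, and wild-type library 2 correlated best with knockout library 3 (0.352), so the numbers were not treated as pairs. With the replicate block 43 members were higher and 3 lower, SAS10 losing its call (adjusted p = 0.0761).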
